A study of Mus musculus with 6 samples.

Results

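The 10 genes described here encode members of the activator protein 1 (AP-1) family of transcription factors, and their loci were examined for changes in chromatin accessibility under hypoxia. The genes were *Fos*, *Fosb*, *Fosl1* and *Fosl2* of the Fos family, *Jun*, *Junb* and *Jund* of the Jun family, *Batf* and *Batf3*, and the small Maf gene *Maff*, out of 55450 genes in the annotation. A locus was taken as the gene body and the 50 kb on either side of it. All peaks in these windows were kept, which gave 110 of the 52358 regions listed in at least 1 library and 92 of the 41308 consensus peaks, meaning peaks shared by both replicates of a condition. Of these 92 peaks, 65 were listed in all 6 libraries and could be tested, among 28432 such peaks genome-wide. The regions numbered 6 at *Batf*, 7 at *Jun*, 8 at *Batf3*, 10 at *Maff*, 11 each at *Fos* and *Fosl2*, 13 each at *Fosl1* and *Jund*, 15 at *Fosb* and 16 at *Junb*. Of the 110, 14 lay at promoters of the AP-1 genes themselves, 42 at promoters of neighbouring genes and 54 elsewhere.

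AP-1 is a dimer of basic leucine zipper proteins. Fos proteins pair with Jun proteins, Jun proteins also pair with each other, and the dimers bind the TPA response element (TRE, TGACTCA or, on the other strand, TGAGTCA) or the cAMP response element (CRE, TGACGTCA). *Fos*, *Fosb*, *Jun* and *Junb* are immediate early genes, whose transcription is switched on by growth factor and stress signals through mitogen-activated protein kinases without new protein synthesis. In gliomas, AP-1 has been linked to proliferation, invasion and mesenchymal gene expression.

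The cells were GL261, a mouse glioma line, stably expressing pEGFP-N1, a plasmid for green fluorescent protein, so every library came from the same engineered line. They were kept at 21% O2 (normoxia), or for 16 h at 1% O2 (moderate hypoxia) or at <0.1% O2 (severe hypoxia) in a hypoxic chamber, then fixed with formaldehyde before transposition. There were 2 ATACseq libraries per condition, and the labels do not say whether replicates were separate cultures, so p-values measure the spread between these libraries, which may be technical. ATACseq uses a transposase that cuts and tags open DNA. In such bulk libraries, fewer cells with an open site and less opening per cell cannot be told apart.

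The lists held 33006 and 36188 peaks in normoxia, 42807 and 41783 in moderate hypoxia, and 43554 and 39348 in severe hypoxia, and the genome coverage recovered from them was lowest in the normoxic libraries, at 2.16 and 2.36 against 2.93 to 3.35 in hypoxia. All 8 glioma or glial progenitor markers examined, *Sox2*, *Nes* and *Olig2* among them, had a promoter peak in every library. None of the 5 immune markers had a promoter peak in any library. Neither *Cdh5* nor *Kdr* of 3 endothelial markers had one, while *Pecam1* had one in 5 libraries. The neuronal markers *Rbfox3* and *Snap25* had none, and *Syp* had one in 4 libraries.

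Accessibility is given below as the summit pileup, the number of fragments stacked at the highest point of a peak, recovered for every peak from the listed fold and p-value. To compare libraries of different depth, the pileup was divided by the median pileup of the 28432 shared peaks in that library, which ran from 61 to 108, and this ratio is called the level. Differences between conditions were tested with limma on log2 levels, and a peak was called at a Benjamini-Hochberg adjusted p below 0.05 and an absolute log2 change of at least 0.6. A peak with any base within 2000 bp of an annotated start site is a promoter peak, and any other is distal. Distances of peaks run from the summit to the nearest annotated start site of the AP-1 gene.

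At 7 of the AP-1 genes promoter peaks were listed in all 6 libraries, and none of these 12 peaks was called at either oxygen level. They had a median level of 2.08 against 1.33 for all 12959 tested promoter peaks. Of the 12, 0 were called higher and 0 lower at 1% O2 with limma, where 3.92% of all tested promoter peaks were called higher and 7.29% lower. At <0.1% O2 the counts were again 0 and 0, where 4.53% of all tested promoter peaks were called higher and 19.5% lower. Without the size threshold, at an adjusted p below 0.05 alone, 4 of the 12 were higher and 3 lower at 1% O2. The shares over all tested promoter peaks were 12.9% and 22%. At <0.1% O2, 2 were higher and 2 lower, where the shares were 13.8% and 38.5%. The median log2 change of the 12 was 0.13 at 1% O2 and 0.013 at <0.1% O2, beside -0.07 and -0.19 over all promoter peaks.

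**Figure D1:**
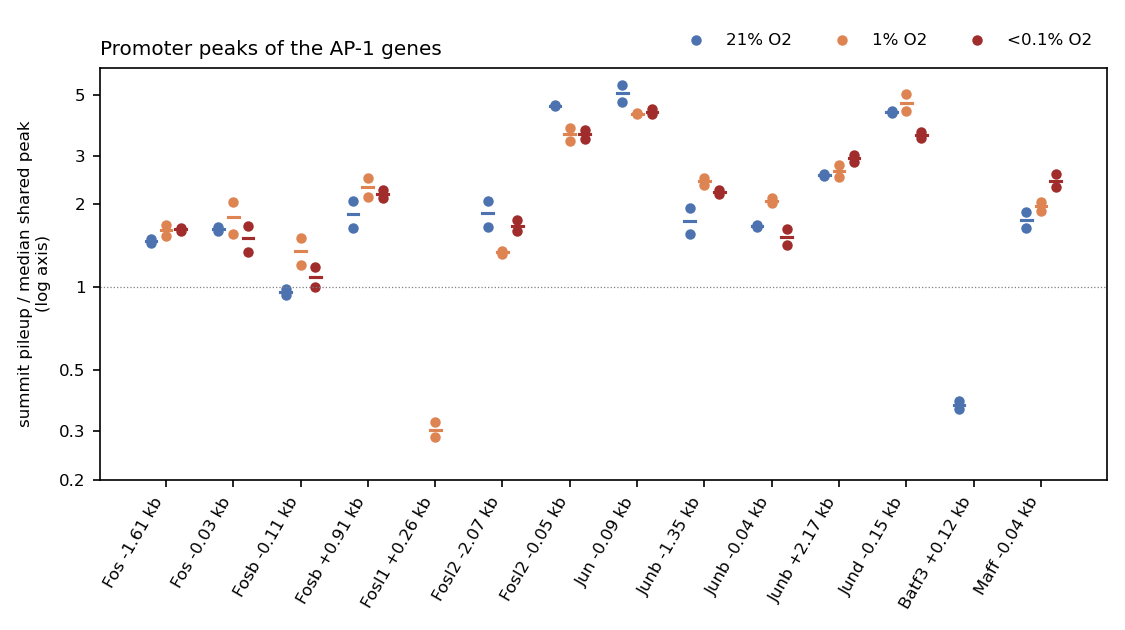
Level (summit pileup divided by the median shared peak of the library, log axis) of the 14 promoter peaks of the AP-1 genes, each labelled with the distance of its summit from the nearest start site in kb, with 1 point per library, a short line at the mean of 2 libraries and colours for 21%, 1% and <0.1% O2. *Jun*, *Fosl2* and *Jund* had the highest levels, and the weak promoter peaks of *Fosl1* and *Batf3* were listed only at 1% O2 and only at 21% O2, respectively.

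In the Fos family, *Fos*, a classic immediate early gene, had its start site peak at chr12:85473349-85474630 (mm10, overlapping the start of the gene). Its summit pileups were 101 and 128 in normoxia, 169 and 200 in moderate hypoxia, and 133 and 137 in severe hypoxia. Relative to the median shared peak these were levels of 1.63 ± 0.04 (SD, n = 2), 1.80 ± 0.34 and 1.51 ± 0.23, and the 3 conditions overlapped. Fitted log2 changes were 0.13 (95% confidence interval -0.13 to 0.40) at 1% O2 and -0.12 (-0.39 to 0.15) at <0.1% O2. A second promoter peak 1.61 kb upstream also differed by less than the threshold, with log2 changes of 0.13 and 0.14.

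The 250 bases before the RefSeq start of *Fos* (GRCm38.p6, chr12:85473640-85473889, plus strand) lie inside that peak and held no perfect TRE, CRE or CArG box, the binding site of serum response factor. The peak reaches further upstream than this window, and those bases were not searched, so a site there would be missed.

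*Fos* promoter: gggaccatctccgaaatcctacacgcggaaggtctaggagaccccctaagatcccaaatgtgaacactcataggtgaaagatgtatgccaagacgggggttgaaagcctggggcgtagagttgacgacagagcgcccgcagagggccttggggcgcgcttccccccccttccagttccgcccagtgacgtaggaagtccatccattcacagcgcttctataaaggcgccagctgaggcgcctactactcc

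*Fosb*, whose products include the truncated, long-lived form ΔFosB, had its strongest promoter peak in its own intron, at chr7:19307818-19309026. Its summit lay 0.91 kb past the nearest of the annotated *Fosb* start sites, which is not the outermost one. Pileups there were 100 and 165, then 269 and 208, then 224 and 173 at 21%, 1% and <0.1% O2. Every hypoxic level lay above both normoxic ones, but the log2 changes of 0.32 (adjusted p = 0.0301) and 0.25 (adjusted p = 0.0806) were below the size called. The narrower peak at the start site itself had a log2 change of 0.49 at 1% O2 (adjusted p = 0.00804) and 0.18 at <0.1% O2 (adjusted p = 0.323). Without 1% O2 replicate 1 the first of these became 0.65 and was called.

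*Fosl2*, which encodes Fra-2, had one of the strongest promoters of the family. Its pileups at chr5:32135027-32136410 were 279 and 364 in normoxia, 409 and 333 in moderate hypoxia, and 343 and 304 in severe hypoxia. As levels these were 4.56 ± 0.02, 3.59 ± 0.28 and 3.59 ± 0.17 (SD, n = 2 each), with no overlap between normoxia and either level of hypoxia. A log2 change of -0.35 was found at both oxygen levels, with adjusted p of 0.00427 and 0.00297, which passed the p threshold but not the size. The upstream promoter peak of *Fosl2*, 2.07 kb before the start, had a log2 change of -0.46 at 1% O2 (adjusted p = 0.00351) and -0.14 at <0.1% O2, and the first of these was -0.62 and called without 21% O2 replicate 1.

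*Fosl1*, which encodes Fra-1, had no promoter peak in normoxia. A weak peak over the untranslated region of its first exon was listed in both 1% O2 libraries, with pileups of 35 (exact Poisson 95% interval 24.4 to 48.7, counting error only) and 28 (18.6 to 40.5). It was in neither list at 21% O2 and in neither at <0.1% O2, so no change could be fitted. The intervals, like all counting intervals here, leave out the spread between cultures.

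Among the Jun family, *Jun* had the most accessible promoter of the 10 genes in normoxia and severe hypoxia, and *Jund* in moderate hypoxia. Its pileups at chr4:95051651-95053697 were 288 and 432 in normoxia, 458 and 419 in moderate hypoxia, and 421 and 363 in severe hypoxia, and its level was 5.06 ± 0.48, 4.26 ± 0.02 and 4.34 ± 0.12 (SD, n = 2 each). All 4 hypoxic levels lay below both normoxic ones. This gave a log2 change of -0.25 at 1% O2 (95% confidence interval -0.44 to -0.055, adjusted p = 0.0381) and -0.22 at <0.1% O2 (-0.41 to -0.03, adjusted p = 0.0537). In rank of pileup the peak stayed between the 97.1 and 98.7 percentile of shared peaks in every library.

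The 250 bases before the RefSeq start of *Jun* (GRCm38.p6, chr4:95052223-95052472, minus strand, written on that strand) are shown because they sit under this peak, and held no perfect TRE, CRE or CArG box either. Bases of the peak further upstream were not searched.

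*Jun* promoter: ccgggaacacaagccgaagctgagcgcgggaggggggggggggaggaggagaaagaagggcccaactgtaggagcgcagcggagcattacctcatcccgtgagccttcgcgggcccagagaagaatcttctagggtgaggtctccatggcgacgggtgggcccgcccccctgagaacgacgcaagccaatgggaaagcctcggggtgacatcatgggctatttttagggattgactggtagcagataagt

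*Jund*, the Jun gene that most cells express without stimulation, had pileups of 266 and 342 in normoxia, 541 and 427 in moderate hypoxia, and 346 and 299 in severe hypoxia over its start site peak (chr8:70698358-70699399). Its levels were 4.32 ± 0.06, 4.68 ± 0.46 and 3.57 ± 0.11 (SD, n = 2 each), and the severe hypoxia libraries lay below all the others. Against 21% O2 the change was 0.11 (adjusted p = 0.37) at 1% O2 and -0.27 (adjusted p = 0.0173) at <0.1% O2, and the difference between the 2 levels of hypoxia was -0.39 (adjusted p = 0.00297), all under the size called. With the GC trend of each library subtracted, the <0.1% O2 change was 0.11 for *Jund*, -0.052 for *Jun* and 0.0017 for *Fosl2*, so the lower levels of *Jund* and *Fosl2* there do not hold under that setting.

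*Junb*, an immediate early gene whose protein can oppose that of *Jun* at some targets, had 3 promoter peaks. The strongest, 2.17 kb inside the gene, had pileups of 157 and 203, 299 and 247, and 283 and 247, or levels of 2.56 ± 0.03, 2.64 ± 0.18 and 2.94 ± 0.11 (SD, n = 2 each), with log2 changes of 0.05 and 0.20 at 1% and <0.1% O2. At the start site the pileups were 101 and 135 in normoxia, 227 and 198 in moderate hypoxia, and 161 and 117 in severe hypoxia. Here the 1% O2 levels were above all others, and the severe against moderate change was -0.44 (adjusted p = 0.00619). The peak 1.35 kb upstream had log2 changes of 0.48 (adjusted p = 0.00108) and 0.36 (adjusted p = 0.0101), the first of which was 0.64 and called without 21% O2 replicate 2.

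The remaining 3 genes encode factors that need a partner to activate transcription. *Maff*, a small Maf protein with no activation domain of its own, had the steepest promoter change at <0.1% O2. Its pileups at chr15:79347061-79348421 were 114 and 131 in normoxia, 204 and 200 in moderate hypoxia, and 228 and 211 in severe hypoxia, and the levels were 1.75 ± 0.16, 1.96 ± 0.11 and 2.44 ± 0.19 (SD, n = 2 each). Both severe hypoxia levels were above all the others. The log2 change was 0.17 (adjusted p = 0.261) at 1% O2 and 0.48 (95% confidence interval 0.25 to 0.71, adjusted p = 0.000728) at <0.1% O2. With the GC trend subtracted, the latter was 0.73 and was called, as were 2 of the *Junb* promoter peaks, so that 3 of the 12 promoter peaks were called higher at <0.1% O2 under that setting, where 7.10% of all promoter peaks were, and 0 at 1% O2, where 4.54% were.

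*Maff* has 3 RefSeq starts, and the 250 bases before 2 of them lie inside this peak. Only the first of these (GRCm38.p6, chr15:79347270-79347519, plus strand) held a perfect CRE, and it is shown for that CRE, in capitals, which 1.55% of the 32851 RefSeq promoter windows of this length hold.

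*Maff* promoter: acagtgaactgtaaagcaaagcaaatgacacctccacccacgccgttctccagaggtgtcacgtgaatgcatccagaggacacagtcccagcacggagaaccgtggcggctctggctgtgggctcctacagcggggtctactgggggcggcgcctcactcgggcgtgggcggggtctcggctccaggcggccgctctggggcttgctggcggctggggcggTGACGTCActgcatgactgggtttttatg

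*Batf*, which pairs with Jun proteins and is best known from lymphocytes, had no promoter peak in any library. A peak lay in its own intron, 19.0 kb past the start, with pileups of 73 and 81, 144 and 125, and 98 and 107 and log2 changes of 0.24 and 0.05. *Batf3*, best known for its part in dendritic cell development, had a weak promoter peak that was listed only in normoxia, with pileups of 22 (exact Poisson 95% interval 13.8 to 33.3) and 31 (21.1 to 44.0). It was among the lowest 3.4% of folds in those lists, and in none of the 4 hypoxic lists.

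Away from their own promoters, the loci held peaks that did pass the call. In total 19 of the 65 tested peaks (29.2%) were called in at least 1 comparison with 21% O2, where 31.0% of all tested peaks were. Of the 19, 12 were distal, 7 lay at promoters of other genes and 0 at promoters of AP-1 genes. The 12 were 48.0% of the 25 tested distal peaks of the loci, where 34.1% of all distal peaks were called. The 7 were 17.5% of the 40 tested promoter peaks of the loci, where 27.2% of all promoter peaks were. In either direction 10 of the 65 (15.4%) were called at 1% O2 and 12 (18.5%) at <0.1% O2, where 16.7% and 24.5% of all peaks were. Of 25 distal peaks, 5 were called higher at 1% O2 and 1 lower, where 11.2% and 10.0% of all distal peaks were called. At <0.1% O2, 7 of 25 were called higher and 0 lower (28.0%), where the shares over all distal peaks were 19.6% and 5.36%. Of 40 promoter peaks in the loci, those of neighbouring genes included, 4 were called higher and 0 lower at 1% O2, where 3.92% and 7.29% of all promoter peaks were called. At <0.1% O2, 4 were higher and 1 lower, where the shares over all promoter peaks were 4.53% and 19.5%. With the GC trend subtracted, the AP-1 peaks called higher at <0.1% O2, promoter and distal together, rose from 11 to 17, while those called lower stayed at 1 and higher calls over all peaks went from 12.7% to 11%. The median log2 change of the distal peaks was 0.24 at 1% O2 and 0.21 at <0.1% O2, beside 0.00 and 0.17 for all distal peaks, and both comparisons use the same 2 normoxic libraries. Single distal peaks ran from -0.83 to 1.09 at 1% O2 and from -0.24 to 0.92 at <0.1% O2, and the 28 promoter peaks of neighbouring genes from -0.44 to 1.39 and from -0.88 to 1.38. Of the calls, 5 of 10 at 1% O2 and 10 of 12 at <0.1% O2 held whichever library was left out. On fold over local background instead of pileup, 2 peaks of the loci were called higher and 1 lower at 1% O2, where 1.79% and 1.32% of all peaks were, and 1 higher at <0.1% O2, where 2.49% were. These were 30.4 kb upstream of *Jun* and 25.8 kb from *Junb*, 28.5 kb past *Jun*, and the *Junos* promoter, and no other call against 21% O2 held on fold.

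**Figure D2:**
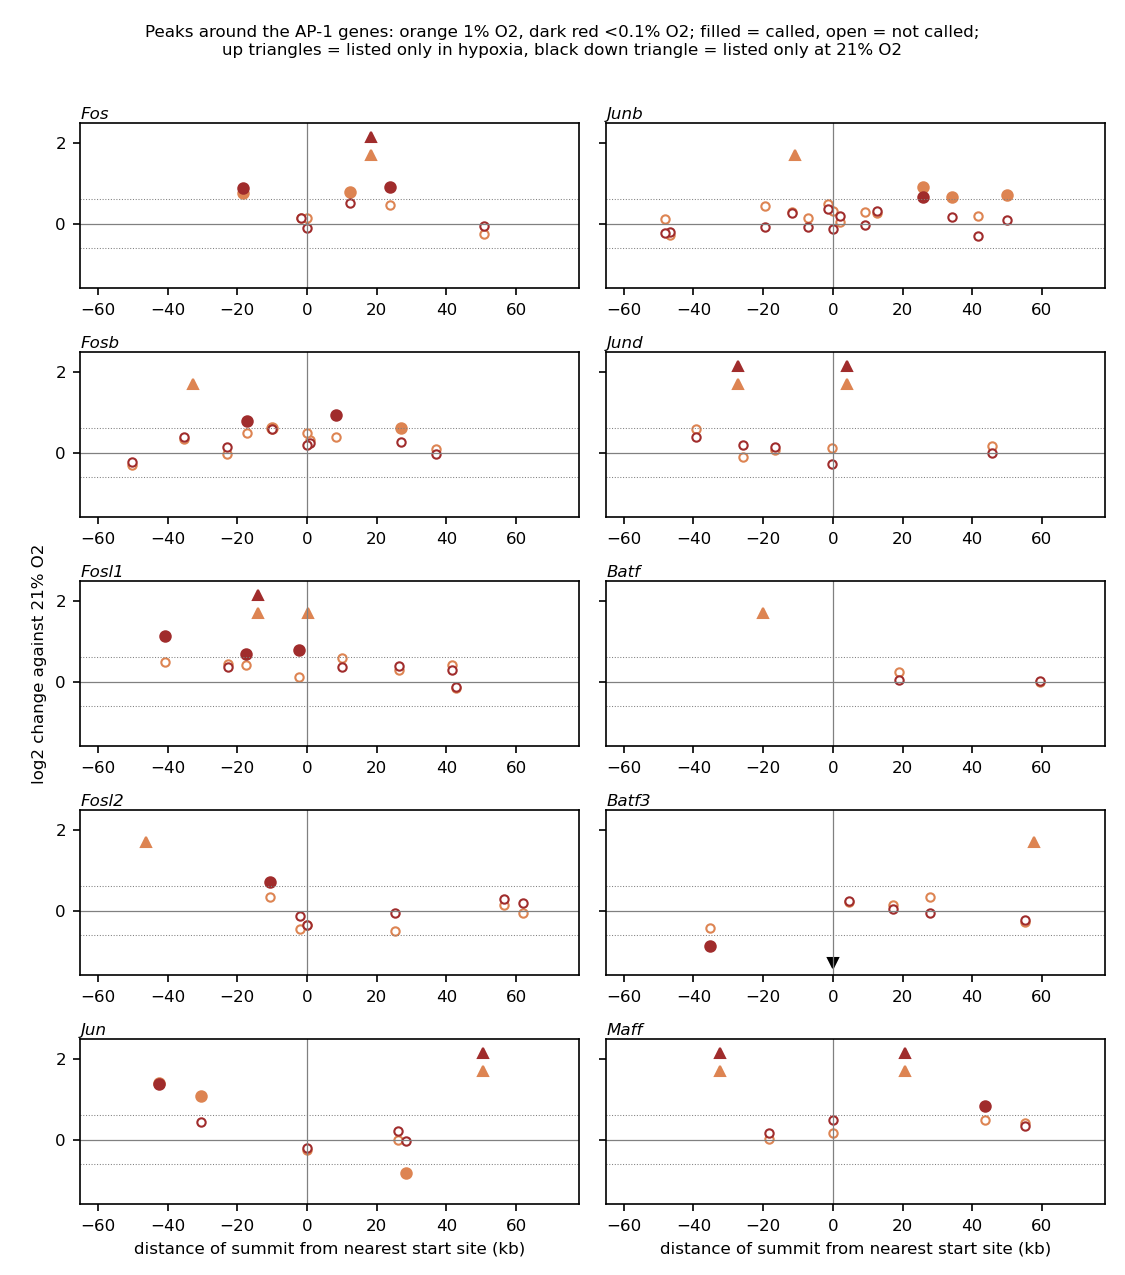
Log2 change in level against 21% O2 (y axis, dotted lines at the 0.6 threshold) of every tested peak by the distance of its summit from the nearest start site of the AP-1 gene (x axis, kb, upstream to the left), with orange for 1% O2, dark red for <0.1% O2, filled circles for called peaks, open circles for the rest, and triangles, set at fixed heights, for regions listed only in hypoxia or only at 21% O2. The circles of the AP-1 promoters, near distance 0, are all open, and the filled circles lie to either side of them.

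The *Fos* locus held 3 called peaks, all intergenic. The strongest of these, 18.5 kb upstream of *Fos* at chr12:85455001-85455964, had pileups of 124 and 176 in normoxia, 372 and 362 in moderate hypoxia, and 368 and 337 in severe hypoxia. As levels these were 2.12 ± 0.12, 3.57 ± 0.18 and 3.91 ± 0.28 (SD, n = 2 each), and the peak stood above the *Fos* promoter in every library. The level rose by a log2 change of 0.75 at 1% O2 (SE 0.10, adjusted p = 2.71e-07) and 0.89 at <0.1% O2 (SE 0.10, adjusted p = 6.28e-09). The local background under this peak, divided by the median shared pileup as the levels are, was 0.143 and 0.134 in normoxia and 0.238 to 0.266 in hypoxia, and on the fold over that background the change was -0.19 and -0.02, so the direction rests on the pileup.

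Downstream of *Fos*, the peak at 12.2 kb (chr12:85485736-85487987) had levels of 1.45 ± 0.08, 2.50 ± 0.03 and 2.06 ± 0.06 (SD, n = 2 each) and rose at 1% O2 (log2 change 0.78, adjusted p = 8.49e-07). Its change at <0.1% O2 was 0.50 (adjusted p = 0.000341), below the size called, and on fold the 1% O2 change was -0.00. The peak at 23.9 kb (chr12:85497447-85498271) rose at <0.1% O2, with pileups of 81 and 92, 176 and 177, and 204 and 217 and a log2 change of 0.92 (adjusted p = 2.72e-07). Its levels rose in the order 21%, 1% and <0.1% O2 with no overlap between conditions. On fold its change was -0.06 at 1% O2 and 0.26 (adjusted p = 0.177) at <0.1% O2, so this order rests on the pileup.

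At the *Jun* locus the peaks went in different directions. The peak at the promoter of the noncoding gene *Junos*, 42.6 kb upstream of *Jun* (chr4:95094461-95095183), had the largest change of all tested AP-1 peaks. Its pileups were 15 and 24 in normoxia, 72 and 75 in moderate hypoxia, and 69 and 59 in severe hypoxia, and its level rose from 0.27 ± 0.04 to 0.72 ± 0.07 and 0.71 ± 0.02 (SD, n = 2 each). Its log2 change was 1.39 (SE 0.20, adjusted p = 1.28e-06) at 1% O2 and 1.38 (SE 0.20, adjusted p = 8.24e-07) at <0.1% O2. This peak also rose on fold at <0.1% O2, by 0.63, and its fold change of 0.56 at 1% O2 was under the size called.

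An intronic peak of *Junos*, 30.4 kb upstream of *Jun*, had pileups of 18 and 16, 71 and 40, and 32 and 27, and rose at 1% O2 (log2 change 1.09, adjusted p = 0.000877). It was not called at <0.1% O2 (0.43, adjusted p = 0.17), and the 1% O2 call was lost without 1% O2 replicate 1 (0.75, adjusted p = 0.0816). On the other side, 28.5 kb past the *Jun* start in an intron of *Gm12694*, a peak with pileups of 48 and 60, 45 and 44, and 76 and 61 fell at 1% O2 (log2 change -0.83, adjusted p = 0.000476) and not at <0.1% O2 (-0.02, adjusted p = 0.927). The difference between the 2 levels of hypoxia at this peak was itself called, at 0.81 (adjusted p = 0.00136), but not with the GC trend subtracted (0.50, adjusted p = 0.068) or on fold (0.44, adjusted p = 0.133).

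Around *Fosl1* the peaks that were called were higher at <0.1% O2. The promoter peak of *4930481A15Rik*, 40.7 kb upstream, had levels of 0.43 ± 0.01, 0.62 ± 0.11 and 0.95 ± 0.04 (SD, n = 2 each), with a log2 change of 1.13 at <0.1% O2 (adjusted p = 6.51e-06) and 0.49 at 1% O2. A peak 2.38 kb upstream of *Fosl1* had pileups of 18 and 26, 42 and 28, and 52 and 45 and a log2 change of 0.79 at <0.1% O2 (adjusted p = 0.00479). Another peak, 17.6 kb upstream, was called on pileup, at 0.69 (adjusted p = 0.00139), but its direction turned on fold, with -0.13 at <0.1% O2 and -0.29 at 1% O2, and its call was lost when scaled by coverage (0.53). None of the 3 was called on fold, and all 3 kept their pileup call whichever library was left out.

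At *Fosb*, the promoter peak of *Gm26802*, 8.39 kb past the start of *Fosb*, rose at <0.1% O2 by 0.94 (adjusted p = 0.0011), from a level of 0.35 ± 0.08 to 0.67 ± 0.10 (SD, n = 2 each). The other called *Fosb* peaks lay 17.2 kb upstream (0.78 at <0.1% O2), 10.1 kb upstream (0.61 at 1% O2, and 0.061 on fold) and 27.0 kb downstream at *Ppm1n* and *Rtn2* (0.61 at 1% O2). The calls of the last 2 were lost without 1% O2 replicate 1 (0.58 and 0.53), and that of *Ppm1n* and *Rtn2* also without 21% O2 replicate 2 (0.41). At *Junb*, the promoter peak of *Rtbdn* at 25.8 kb rose at both oxygen levels, by 0.91 and 0.66 (adjusted p = 0.000594 and 0.00735). The second of these was lost without 21% O2 replicate 2 (0.41) and without <0.1% O2 replicate 1 (0.62, adjusted p = 0.0628). Another *Rtbdn* peak at 34.1 kb and one in an exon of *Mast1* at 50.0 kb were called higher at 1% O2 (0.67 and 0.71) and not at <0.1% O2 (0.15 and 0.09). The first call was lost without 21% O2 replicate 1 (0.40) and the second without 1% O2 replicate 1 (0.54). At the *Mast1* peak the level was also lower at <0.1% than at 1% O2 (-0.62, adjusted p = 0.0165).

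The *Maff* locus held a strong called peak in an intron of *Tmem184b*, 43.7 kb past the start (chr15:79391255-79392074), with pileups of 133 and 180, 323 and 313, and 403 and 319. Levels were 2.22 ± 0.05, 3.09 ± 0.14 and 3.98 ± 0.13 (SD, n = 2 each), and they did not overlap between any 2 conditions. The change was 0.85 at <0.1% O2 (SE 0.10, adjusted p = 1.25e-08) and 0.48 at 1% O2 (adjusted p = 0.000222). The local background, scaled in the same way, was 0.177 and 0.161 in normoxia and 0.222 to 0.287 in hypoxia. On fold the change was 0.07 at <0.1% O2 and -0.12 at 1% O2, so the rise rests on the pileup. *Fosl2* had 1 called peak, 10.7 kb upstream (0.70 at <0.1% O2). Its change was 0.41 without 21% O2 replicate 2, 0.67 without <0.1% O2 replicate 1 and 0.74 without <0.1% O2 replicate 2. The call was lost in each case, in the last 2 on adjusted p and not on size. It was also lost with the GC trend subtracted (0.59).

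At *Batf3*, the shared promoter of *Nsl1*, a kinetochore gene, and *Tatdn3* was the only peak of the loci called lower at <0.1% O2. Its pileups were 74 and 89, 91 and 85, and 62 and 52, and its level went from 1.16 ± 0.07 to 0.85 ± 0.02 and 0.63 ± 0.01 (SD, n = 2 each). The change was -0.88 (adjusted p = 2.07e-05) at <0.1% O2 and -0.44 (adjusted p = 0.0264) at 1% O2. On fold neither held, with -0.25 (adjusted p = 0.14) at <0.1% O2 and 0.013 at 1% O2. Neither *Jund* nor *Batf* had a called peak.

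**Figure D3:**
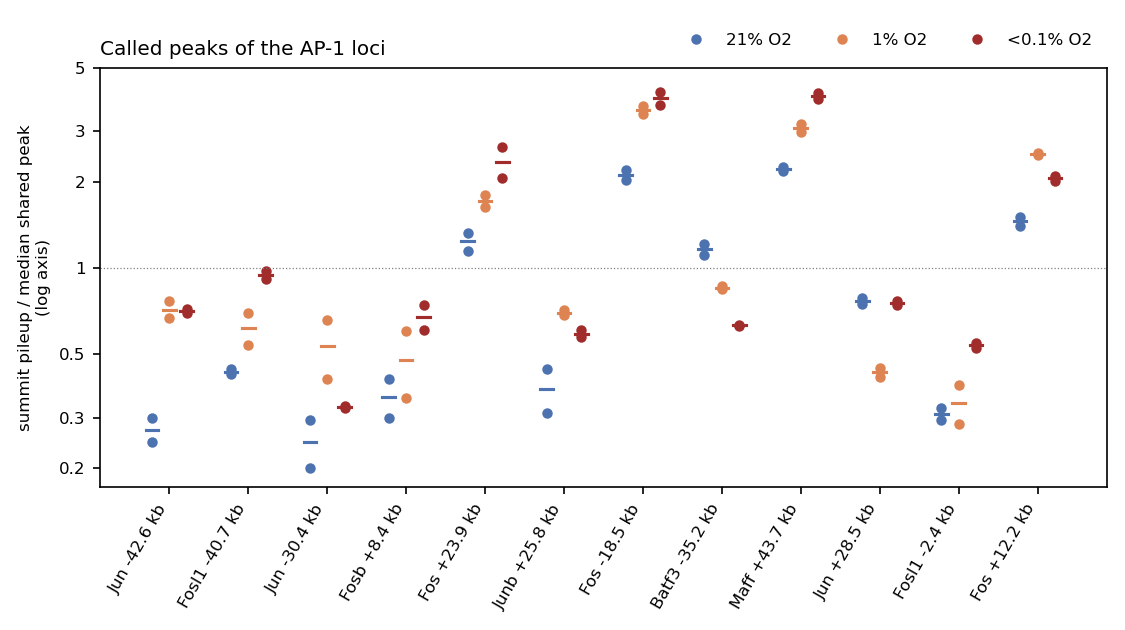
Level (summit pileup divided by the median shared peak, log axis) in each library of the 12 called peaks with the largest absolute log2 change, ordered by it and labelled with the AP-1 gene and the distance of the summit from its start in kb. Points are libraries, short lines the means of 2, and the peaks 18.5 kb upstream of *Fos* and 43.7 kb past *Maff* reach levels near 4 in severe hypoxia.

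The direct comparison of severe with moderate hypoxia called 4 of the 65 peaks. Of the 40 promoter peaks 1 was higher and 0 lower, where 1.35% and 4.77% of all promoter peaks were, and of the 25 distal peaks 2 were higher and 1 lower, where 9.64% and 1.03% of all distal peaks were. The 3 higher were the *4930481A15Rik* and 2.38 kb upstream peaks of *Fosl1* (0.63 and 0.69) and the 28.5 kb *Jun* peak, and the lower was the *Mast1* exon peak near *Junb*. Of the 4, the *Jun* peak alone kept its call whichever library was left out. With the GC trend subtracted, the peak 2.38 kb upstream of *Fosl1* (0.69) was the 1 AP-1 peak still called, and on fold none of the 4 kept its call, with changes of 0.20 and 0.52 for the *Fosl1* peaks, 0.44 for *Jun* and -0.62 for *Mast1*. Without 1% O2 replicate 1 the *4930481A15Rik* change was 0.45 and the *Mast1* change -0.45. Without <0.1% O2 replicate 2 the *4930481A15Rik*, 2.38 kb *Fosl1* and *Mast1* changes were 0.59, 0.66 and -0.52.

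Scaling each library by its genome coverage in place of the median shared peak moved the median of all tested peaks to 0.13 at 1% O2 and to -0.16 at <0.1% O2. The changes of single AP-1 peaks relative to that median are the ones given here. For severe against moderate hypoxia it moved to -0.31, with 0 AP-1 peaks called higher and 14 lower, where 1.06% and 18.2% of all peaks were. Under that scaling 18 of the 65 AP-1 peaks were called higher and 1 lower at 1% O2, where 13.4% and 3.93% of all peaks were. At <0.1% O2 the counts were 8 and 1, where the shares of all peaks were 7.85% and 19.2%. Of the 12 own promoter peaks 2 were called higher at 1% O2, where 8.23% of all promoter peaks were, and 3 were called lower at <0.1% than at 1% O2, where 30.1% were. Over all peaks, the share of calls that were higher was 47.2% and 51.9% with the median-peak scaling, and 77.3% and 29.0% with coverage.

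Presence in the lists adds to this, since a peak missing from a normoxic list could not be tested. Absence from a list means that no peak passed the caller there, not that the site was closed. At 1% O2, 13 of the 110 AP-1 regions were gained, meaning listed in both hypoxic and neither normoxic library. These were 7 of 56 promoter regions, where 3.86% of all promoter regions were gained, and 6 of 54 distal regions, where 10.6% of all distal regions were. At <0.1% O2, 7 were gained, 4 of the promoter regions and 3 of the distal ones, where the shares over all regions were 3.19% and 10.2%. The *Batf3* promoter was the 1 region lost, at both levels, where 0.481% and 1.05% of all promoter regions were lost, and 0 distal regions were, against 0.999% and 1.25%. The same 7 regions were gained at both levels, 6.36% of the loci against 4.69% of all regions. The hypoxic libraries were deeper and listed more peaks in all, and a peak in 85 to 96 of the 110 AP-1 regions against 72 and 77 in normoxia, though not at every locus. When only the 33006 strongest peaks of each library were kept, gained AP-1 regions numbered 8 at 1% O2, where 3.78% of all regions were gained, and 6 at <0.1% O2, where 4.43% were. Lost ones then numbered 2 and 4, where 3.25% and 3.82% of all regions were lost. Of the gained regions under this setting 5 and 3 were promoter regions, where 1.54% and 1.63% of all promoter regions were gained, and 3 at each level were distal, where 4.80% and 5.71% of all distal regions were. Without 21% O2 replicate 2 the gained AP-1 regions numbered 20 and 13, where 13.7% and 12.5% of all regions were gained. They also rose to 11 at <0.1% O2 without <0.1% O2 replicate 1 (11.5% of all regions), to 13 without <0.1% O2 replicate 2 (16.9%), and to 19 at 1% O2 without 1% O2 replicate 2 (14.7%).

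The 7 regions were spread over 5 loci. Near *Jund*, the regions at the *Lsm4* promoter (chr8:70671666-70672222) and the *Iqcn* promoter (chr8:70702568-70703093, 4.0 kb past the *Jund* start) were strong in all 4 hypoxic libraries, with pileups of 212, 163, 206 and 186 and of 196, 184, 172 and 159. Both lay on a high local background of 32.8 to 49.6 fragments, and the nearest normoxic peaks were 646 and 3071 bp away. Near *Maff*, a region in an intron of *Tmem184b* (chr15:79368352-79369071) had pileups of 72, 65, 72 and 55 and one at *Gm20420* had 20 to 32. The *Jun* locus gained a region 50.6 kb past its start (chr4:95001288-95001890) with pileups of 64, 54, 72 and 54. *Fosl1* gained one 14.0 kb upstream (chr19:5433050-5433928), which counts as a promoter region because its edge comes within 2000 bp of the start of *Gm25432*, though its narrower consensus peak does not and counts as distal, with pileups of 66, 62, 72 and 64, and *Fos* one 18.3 kb downstream with 44 to 59. The 6 regions gained only at 1% O2 were the *Fosl1* promoter, the *Hook2* promoter near *Junb*, the promoter region that *Ercc1* and *D830036C21Rik* share near *Fosb*, and 1 distal region each of *Batf*, *Batf3* and *Fosl2*.

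A search of the 201 bp around each summit found a perfect TRE in 10 of 38 distal AP-1 consensus peaks, or 26.3%, against 25.2% of all 26244 distal peaks. In promoter peaks it was 5 of 54 (9.26%) against 7.08%. Of 4 distal consensus peaks in the loci found in all hypoxic and no normoxic library, 3 held a TRE, as did 36.1% of 2136 such peaks genome-wide. A CRE was found in 2 of 54 promoter peaks, those at the start sites of *Jund* and *Maff*, and in 332 of all 15064 promoter peaks. The core of the hypoxia response element (ACGTG or GCGTG, either strand) was in 30 of 54 promoter peaks (55.6%, against 48.5%) and 12 of 38 distal peaks (31.6%, against 23.3%). A CArG box was in 3 promoter peaks, all in the *Junb* locus (5.56%, against 0.690%), and in the called peak 12.2 kb past *Fos*, against 1.08% of distal peaks. A match is a string of letters, and binding was not measured.

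Genome-wide, tested distal peaks with a TRE had a median log2 change of 0.17 at 1% O2 and 0.41 at <0.1% O2, and those without one -0.05 and 0.09. The 5 tested distal AP-1 peaks with a TRE had medians of 0.22 and 0.29, and the 20 without one 0.29 and 0.14. At 1% O2, 0 of the 5 were called, where 18.4% of all distal peaks with a TRE were called higher. At <0.1% O2, 2 of the 5 were called higher on pileup and neither on fold, 17.6 kb upstream of *Fosl1* and 17.2 kb upstream of *Fosb*, where 35.2% of all distal peaks with a TRE were. Of the 20 without a TRE, 5 were called higher at each level, where 8.84% and 14.6% of all distal peaks without one were. The following 7 windows, on the plus strand of GRCm38.p6, are the peaks with a TRE that were called or were listed in all 4 hypoxic and neither normoxic library. They are shown for that TRE, in capitals, the sequence that AP-1 dimers recognise.

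*Jun*, 42.6 kb upstream, *Junos* promoter, chr4:95094684-95094884: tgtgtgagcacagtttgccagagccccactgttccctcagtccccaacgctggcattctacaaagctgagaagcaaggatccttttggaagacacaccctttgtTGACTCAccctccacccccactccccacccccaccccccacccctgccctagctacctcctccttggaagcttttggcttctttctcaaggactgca
*Jun*, 50.6 kb downstream of the start, gained, chr4:95001526-95001726: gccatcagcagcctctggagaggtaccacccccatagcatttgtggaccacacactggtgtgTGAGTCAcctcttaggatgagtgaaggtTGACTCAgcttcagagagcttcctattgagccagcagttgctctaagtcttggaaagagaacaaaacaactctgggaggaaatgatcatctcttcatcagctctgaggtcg
*Fosl1*, 14.0 kb upstream, gained, chr19:5433485-5433685: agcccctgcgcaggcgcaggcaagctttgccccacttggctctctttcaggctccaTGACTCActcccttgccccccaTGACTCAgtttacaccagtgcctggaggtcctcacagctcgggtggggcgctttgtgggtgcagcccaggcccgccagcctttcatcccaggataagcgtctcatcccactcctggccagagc
*Fosl1*, 17.6 kb upstream, chr19:5429892-5430092: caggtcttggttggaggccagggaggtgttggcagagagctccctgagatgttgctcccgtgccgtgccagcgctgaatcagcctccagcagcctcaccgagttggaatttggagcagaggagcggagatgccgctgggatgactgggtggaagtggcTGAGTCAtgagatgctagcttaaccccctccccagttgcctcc
*Fosb*, 17.2 kb upstream, chr7:19327181-19327381: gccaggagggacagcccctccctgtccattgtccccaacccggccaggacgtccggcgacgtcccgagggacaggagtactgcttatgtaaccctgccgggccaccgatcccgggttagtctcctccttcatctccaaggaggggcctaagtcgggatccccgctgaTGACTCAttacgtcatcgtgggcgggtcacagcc
*Maff*, 20.6 kb downstream of the start, gained, chr15:79368577-79368777: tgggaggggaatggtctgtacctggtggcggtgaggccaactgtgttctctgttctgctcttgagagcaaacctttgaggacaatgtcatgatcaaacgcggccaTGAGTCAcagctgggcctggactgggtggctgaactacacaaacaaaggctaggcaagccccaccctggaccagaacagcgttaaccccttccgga
*Jund*, 4.0 kb downstream of the start, gained, chr8:70702845-70703045: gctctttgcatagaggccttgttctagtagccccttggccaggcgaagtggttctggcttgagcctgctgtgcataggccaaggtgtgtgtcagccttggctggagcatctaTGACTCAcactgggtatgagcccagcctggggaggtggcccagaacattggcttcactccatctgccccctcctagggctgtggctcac

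The gained windows of *Jun* and *Fosl1* each held 2 sites, and the others 1. The *Fosl1* promoter peak of the 1% O2 libraries held 1 in its untranslated exon, which is not printed.

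Ranks gave another view of the same peaks. The fold of each peak was ranked among the 28432 shared peaks of its library, and a peak was counted as moved when both hypoxic ranks lay beyond both normoxic ones and the means differed by at least 10 percentile points, a rule with no p-value because an exact permutation test of 2 against 2 libraries cannot go below 0.33. By this rule, 8 of the 40 promoter peaks were higher and 3 lower at 1% O2, where 11.9% and 16.5% of all promoter peaks were. At <0.1% O2, 6 were higher and 4 lower, where the shares were 12% and 26.5%. Of the 25 distal peaks, 4 were higher and 5 lower at 1% O2, where 20.6% and 20.2% of all distal peaks were, and 3 higher and 4 lower at <0.1% O2, where 25.5% and 14.5% were. *Jund* was the only AP-1 gene whose own promoter moved, by -10.2 points at 1% O2 and -15.6 at <0.1% O2, while its pileup rank changed by 1.17 and -2.17 points. Fold rank and pileup rank moved in opposite ways for the peak 18.5 kb upstream of *Fos*, with -12.5 against 14.8 points at 1% O2. They moved together at the *Junos* promoter, by 27.7 and 30.7 points at 1% O2 and by 32.1 and 29.4 at <0.1% O2.

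**Figure D4:**
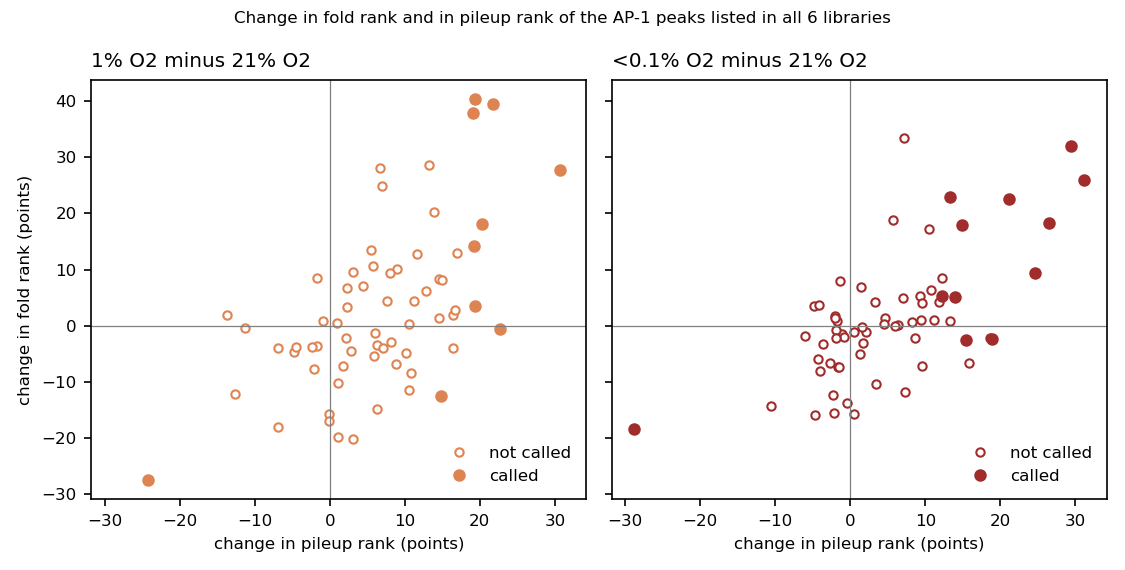
Change in mean fold rank (y axis, percentile points) against change in mean pileup rank (x axis, percentile points) of the 65 tested AP-1 peaks, at 1% O2 on the left and <0.1% O2 on the right, with called peaks filled. At 1% O2 19 peaks, and at <0.1% O2 15, had a higher pileup rank with a lower fold rank, and sit to the lower right.

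Other genes of the pathway, AP-1 targets and other immediate early genes were read at their strongest promoter peak, on pileup alone. Their changes on fold, with the GC trend subtracted or with a library left out are not given here. Over all promoter peaks 3.92% were called higher and 7.29% lower at 1% O2, and 4.53% and 19.5% at <0.1% O2. Of 13 partners with a tested peak, including the Atf, Maf, Bach and Nfe2 genes, 0 were called higher and 1 lower at 1% O2, *Nfe2* (-0.66, adjusted p = 0.00752), and 0 at <0.1% O2. Of 19 upstream kinases and factors, 2 were higher and 0 lower at 1% O2, and 3 higher and 2 lower at <0.1% O2. *Srf*, which encodes serum response factor, rose from levels of 1.92 and 2.06 to between 3.00 and 3.18 in hypoxia (0.62 and 0.64). The p38 kinase gene *Mapk14* rose by 0.66 and 0.61, and *Elk3*, whose protein binds beside serum response factor, by 1.01 at <0.1% O2 (adjusted p = 2.78e-09). *Creb1*, whose protein binds the CRE, fell by 0.96 at <0.1% O2 (adjusted p = 8.37e-09), and *Elk4* by 0.63.

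Of 13 AP-1 targets with a tested promoter peak, 0 were called higher and 4 lower at 1% O2, and 0 higher and 2 lower at <0.1% O2, where 7.29% and 19.5% of all promoter peaks were called lower. *Ccn1*, a matricellular gene, fell by 1.32 and 0.91, from levels of 2.97 and 3.64 to between 1.26 and 1.75. *Ccn2*, of the same gene family, fell by 0.87 at 1% O2, was not called at <0.1% O2 (-0.07), and was higher at <0.1% than at 1% O2 (0.80, adjusted p = 4.27e-05). The cyclin gene *Ccnd1* fell by 0.71 and 0.63, and *Vim*, which encodes vimentin, by 0.87 at 1% O2. Of 16 other immediate early genes, 0 were called at 1% O2 and 3 were called lower at <0.1% O2, a share near the 19.5% of all promoter peaks. These were *Nfkbiz*, *Nr4a1* and *Klf6*, of which the first fell by 0.78 and the second by 0.72. The medians of the 16 were -0.25 and -0.38, against -0.07 and -0.19 over all promoter peaks. Over the 7 AP-1 genes with a tested promoter, the strongest peaks had medians of 0.11 and -0.12.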

How the data were processed

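Peak lists from ATACseq of 6 GL261 libraries were analysed. Per the study's methods and processing notes, the authors trimmed reads (Trimmomatic), aligned them to mm10 (Bowtie2 2.2.5), removed duplicates (Picard), kept mapping qualities above 30 and ran MACS2 2.1.1.2 on each library separately at a q-value of 0.001. Blacklisted regions were removed, and deepTools is also named. Each deposited list gives a display score, fold (a ratio over local background), p and q as -log10 values, and a summit offset. The score was not used.

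Whole-number summit pileups and backgrounds were recovered from fold and p, to within 0.01 in -log10 p for 100% of peaks, by a script tested on simulated data. Consensus peaks joined stretches over 200 bp shared by both replicates of a condition. Groups came from the oxygen labels. Since read counts were not used here, limma 3.58.1 with a trend (R 4.3.3) was fitted to log2 levels of the 28432 peaks listed in all 6 libraries, all conditions in one model, which leaves out peaks missing from any list. Gene models came from GENCODE M21, sequences and GC content from GRCm38.p6 and RefSeq, where all AP-1 genes but *Fosl1* matched a promoter entry. The AP-1 genes and all gene lists were chosen with earlier results of these data known. Named by rule were the strongest promoter peak of each gene, the 12 called peaks of largest change, every region gained or lost, and up to 2 genes per list and contrast, and the other AP-1 promoter peaks, called peaks and genes were named after their values were seen. Alternatives covered the replicate block, GC content, scaling, the value tested, filters, overlaps, thresholds and each library left out. Scripts used numpy 2.4.6, pandas 2.3.3 and Python 3.11.15, with matplotlib 3.10.9, pysam 0.24.0, statsmodels 0.14.6 and scipy 1.17.1.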

Additional observations from a re-analysis of the deposited data

How the results depend on the processing

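Libraries of the same replicate number shared little across conditions. The correlations of their deviations from the group means were -0.051 (21% with 1% O2), -0.013 (21% with <0.1% O2) and 0.0079 (1% with <0.1% O2). Whether they were paired by culture or day is not given in the labels, and these correlations cannot show it. With the replicate block, 4714 peaks were called at 1% O2, 6965 at <0.1% O2 and 2424 between the hypoxic levels, against 4735, 6975 and 2444 without it. Of the 65 AP-1 peaks the block called 10, 12 and 5, against 10, 12 and 4.

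Testing fold in place of pileup left 883, 1331 and 114 calls in these comparisons, and dropping the size threshold gave 10409, 13532 and 6764. Between the hypoxic levels, subtracting the GC trend gave 910 calls, or 890 with the block as well, and scaling by coverage 5482. Tested on fold, the peak 18.5 kb upstream of *Fos* changed by -0.19 at 1% O2 and -0.025 at <0.1% O2, the one 12.2 kb downstream by -0.0048 at 1% O2, and the one 17.6 kb upstream of *Fosl1* by -0.13 at <0.1% O2. Rises on pileup that were not called also had the other sign on fold at several of the 19 peaks. At <0.1% O2 these included the peaks 10.1 kb upstream of *Fosb* (-0.032) and 12.2 kb past *Fos* (-0.11). At 1% O2 they included those 23.9 kb past *Fos* (-0.06), 43.7 kb past *Maff* (-0.12) and 2.38 kb upstream of *Fosl1* (-0.19). The cause was not tested. Calls of AP-1 peaks that were lost with 1 library left out are named with their peaks above. For the 12 AP-1 promoter peaks and all 19 called peaks, 1207 values under an alternative kept their side of the threshold and, where called, their direction, 53 lost a call, 38 gained one and the 4 above reversed a called direction.

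A change of at least 20 rank points was met by 3991 peaks at 1% O2 and 5042 at <0.1% O2, against 9993 and 11166 at 10 points. With the same number of strongest peaks per library, gained regions numbered 1977 at 1% O2 and 2319 at <0.1% O2, and lost regions 1700 and 1999. Leaving out 1 library, gained regions ran from 5402 to 7713 at 1% O2 and from 5084 to 8837 at <0.1% O2, and lost regions from 797 to 1690 and from 957 to 2152. Fewer libraries then have to meet the rule. Windows of 10 kb kept 21 promoter and 13 distal AP-1 regions, against 56 and 54. Smallest listed pileups of 11 to 13 set what presence can show, and 2 libraries per condition what the tests can.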
